A study of Mus musculus with 15 samples.

Results

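The genes described here are 7 markers of B lymphocytes, Ms4a1, Cd79a, Cd79b, Blk, Pou2af1, Cr2 and Cd22, measured in whole mouse hearts. Every noncontrol probe that the scanner files name with one of these symbols was taken, which gave 10 of the 41174 probes on the array. The genes were chosen because of their values in the comparisons below, so their own values are given as a description, without a test.

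The hearts came from mice of the genotype C57BL/KLS-leprdb. Heterozygous db/+ mice, with 1 working copy of the leptin receptor gene, were the controls. The db/db mice carried the mutation on both copies, became obese and diabetic, and were either left untreated or given rosiglitazone, a drug that activates the nuclear receptor PPARgamma, in their chow at 5 mg/kg per day. All mice ate normal chow, and hearts were taken 4 months after the start of treatment. The age and sex of the mice behind each array are not given in the sources used here. The whole-body leptin receptor defect is present in every cell type of the db/db mice, B cells included, and obesity, diabetes and the mutation cannot be told apart in this design.

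On each of the 15 arrays, 5 per group, RNA of 1 heart in the Cy5 channel was read against Universal Mouse Reference RNA in the Cy3 channel. Values are log2 ratios of heart to reference, so a negative value means less signal from the heart than from the reference and a difference of 1 between groups is a 2-fold change. The heart signal of the noncontrol probes was well above background for 56.4% to 71.6% of probes on db/+ arrays, 61.4% to 75.6% on untreated and 66.4% to 71.7% on treated db/db arrays. The heart muscle genes Myh6 and Ryr2 were well above background on all 15 arrays. The arrays of treated replicates 3 and 4 differed by a median absolute deviation of 0.096 in log2 heart signal, against 0.177 to 0.409 for the other pairs within groups, and were averaged and counted as 1 sample. The db/+ replicate 3 stood apart, with a mean correlation of 0.915 with the other arrays where the other 14 had 0.939 to 0.959. Slide 1 held db/+ replicates 1 to 4, slide 2 held db/+ replicate 5 and untreated replicates 1 to 3, slide 3 held untreated replicates 4 and 5 and treated replicates 1 and 2, and slide 4 held treated replicates 3 to 5. The comparisons share groups, and the number of arrays limits their precision.

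B cells recognise antigen with a membrane immunoglobulin that signals through the paired chains CD79A and CD79B, and kinases of the Src family, among them BLK and LYN, carry the signal inwards. CD22 dampens that signal, while CD21, encoded by Cr2, strengthens it when antigen carries complement. A resident and circulating pool of B cells is known in the mouse heart, where most of these cells lie in or along small vessels.

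The comparisons turn on 4 probes, whose first 30 of 60 bases are shown to identify what each one measures. No base is set in capitals, since no motif is marked. The probes lie on mouse build mm8 at chr19:11317922-11317981 and chr19:11318382-11318441 on the minus strand for Ms4a1, at chr11:106127556-106127615 on the minus strand for Cd79b and at chr9:50992233-50992292 on the plus strand for Pou2af1.
Ms4a1 A_52_P483336: gctgtgctttgagattctttccaaatggca
Ms4a1 A_51_P277683: taatggtttttccgcatttcctccatcagc
Cd79b A_51_P342652: agagacttgttggaatctgcaaatggactc
Pou2af1 A_51_P183581: gtcttggctgcaggcatccaaacagatttc

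Each of these 4 probes covers 60 contiguous bases of mm8. The probes of Cd79a and Blk, and probe A_52_P466268 of Cd22, span 258, 1138 and 1325 bases, as happens where a probe crosses an intron. Whether the probes lie in coding or untranslated sequence was not analysed here.

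Ms4a1, Cd79b and, less clearly, Pou2af1 were lower in the hearts of both db/db groups than in db/+ hearts, and rosiglitazone-treated hearts stayed near the untreated ones. Ms4a1 was 3.84-fold lower in untreated and 3.46-fold lower in treated db/db hearts at its brighter probe. Cd79b was 1.999-fold and 2.29-fold lower. Cd79a, Blk, Cr2 and Cd22 were close to or below the background of the array, and no direction could be read for them. In whole hearts, fewer B cells and less RNA per B cell cannot be told apart.

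Ms4a1 encodes CD20, a membrane protein of mature B cells that is lost as they become plasma cells. At probe A_52_P483336 the log2 ratio in db/+ replicates 1 to 5 was -3.99, -4.04, -3.08, -4.11 and -3.97. In untreated db/db replicates 1 to 5 it was -6.26, -5.50, -5.996, -5.76 and -5.39. In treated replicates 1 to 5 it was -5.57, -6.08, -5.38, -5.71 and -5.32. The lowest db/+ heart lay above the highest heart of either db/db group, while the db/db groups overlapped. The group means were -3.84 ± 0.43 (SD, n = 5), -5.78 ± 0.36 (n = 5) and -5.63 ± 0.32 (n = 4). The difference from db/+ was -1.94 in untreated and -1.79 in treated hearts, and treated minus untreated was 0.15. The db/+ replicate 3, which stood apart, had the highest ratio of its group, and without it the differences from db/+ were -1.75 and -1.60. Within slide 2 the untreated hearts differed from the 1 db/+ heart by -1.95, and within slide 3 treated minus untreated was -0.25.

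The second Ms4a1 probe, A_51_P277683, showed the same order of groups. Its log2 ratios were -3.30, -3.64, -2.69, -3.37 and -3.67 in db/+ hearts. They were -5.20, -4.75, -4.68, -4.64 and -4.18 in untreated and -4.47, -4.61, -4.16, -4.34 and -4.52 in treated db/db hearts. Again no db/db heart reached the range of the db/+ hearts. The group means were -3.33 ± 0.40 (SD, n = 5), -4.69 ± 0.36 (n = 5) and -4.46 ± 0.15 (n = 4), which put untreated hearts 2.56-fold and treated hearts 2.19-fold below db/+ hearts. Treated minus untreated was 0.23, smaller than the spread of the untreated hearts.

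Cd79b, the beta chain of the signalling pair of the B cell receptor, was the member with the smallest spread between hearts. Its log2 ratios were -2.85, -2.80, -2.98, -3.03 and -3.19 in db/+ hearts. They were -4.11, -3.90, -4.05, -3.90 and -3.88 in untreated and -4.28, -4.41, -4.09, -4.01 and -3.90 in treated db/db hearts. The db/+ hearts lay above all db/db hearts, and the db/db groups overlapped. The group means were -2.97 ± 0.15 (SD, n = 5), -3.97 ± 0.10 (n = 5) and -4.16 ± 0.23 (n = 4). The differences from db/+ were -0.999 in untreated and -1.19 in treated hearts, and treated minus untreated was -0.19. Within slide 2 the untreated hearts differed from the db/+ heart by -0.83, and without db/+ replicate 3 the difference from db/+ was -1.002 in untreated and -1.195 in treated hearts.

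Pou2af1 encodes OBF-1, a coactivator that acts with octamer-binding factors at immunoglobulin promoters and that germinal centres depend on. Its log2 ratios were -4.80, -4.57, -4.41, -4.64 and -4.83 in db/+ hearts. They were -5.13, -4.66, -5.31, -4.73 and -4.90 in untreated and -5.10, -5.46, -5.13, -4.93 and -4.93 in treated db/db hearts. Untreated and db/+ hearts overlapped, whereas every treated heart lay below every db/+ heart. The group means were -4.65 ± 0.17 (SD, n = 5), -4.95 ± 0.27 (n = 5) and -5.13 ± 0.23 (n = 4). This is 1.23-fold lower in untreated and 1.40-fold lower in treated hearts, and the untreated difference of -0.30 is about the size of the spread within that group.

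**Figure D1:**
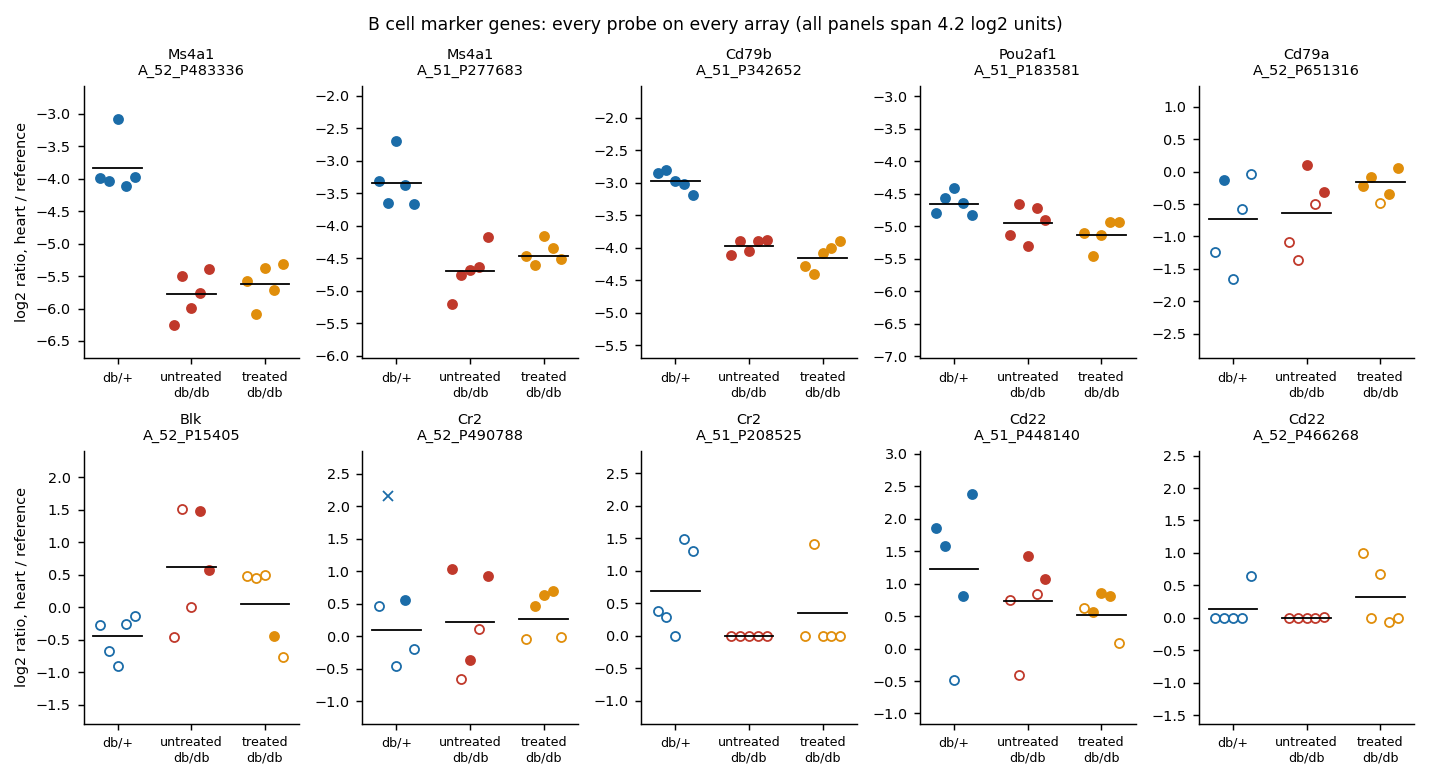
Log2 ratio of heart to reference (vertical axis, 4.2 log2 units in each panel) for all 10 probes of the 7 genes on the 15 arrays, by group. Filled points are well above background in the heart channel, open points are not, a cross is a spot marked as an outlier by the scanner software and left out, and lines are group means with treated replicates 3 and 4 averaged first. Both Ms4a1 probes and Cd79b separate db/+ from both db/db groups, while most points in the lower row are open.

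The signals behind these ratios show which channel moved. The heart signal of Ms4a1 probe A_52_P483336 was 407 to 553 scanner units on db/+ arrays, 91.1 to 166 on untreated and 142 to 210 on treated db/db arrays. The reference signal of the same spots was 4672 to 7743, 6409 to 8264 and 7147 to 9742. The lowest reference signal of Ms4a1 was that of db/+ replicate 3, whose heart signal was also the highest of all 15. For Cd79b the heart signal was 1528 to 2319 on db/+, 869 to 1143 on untreated and 847 to 1365 on treated arrays. The heart channel thus separated the groups at both genes, and the reference channel overlapped between them. The Pou2af1 heart signal, 1150 to 2222 over all arrays, overlapped between the 3 groups. On every one of the 15 arrays, heart and reference signals of these spots were well above background.

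**Figure D2:**
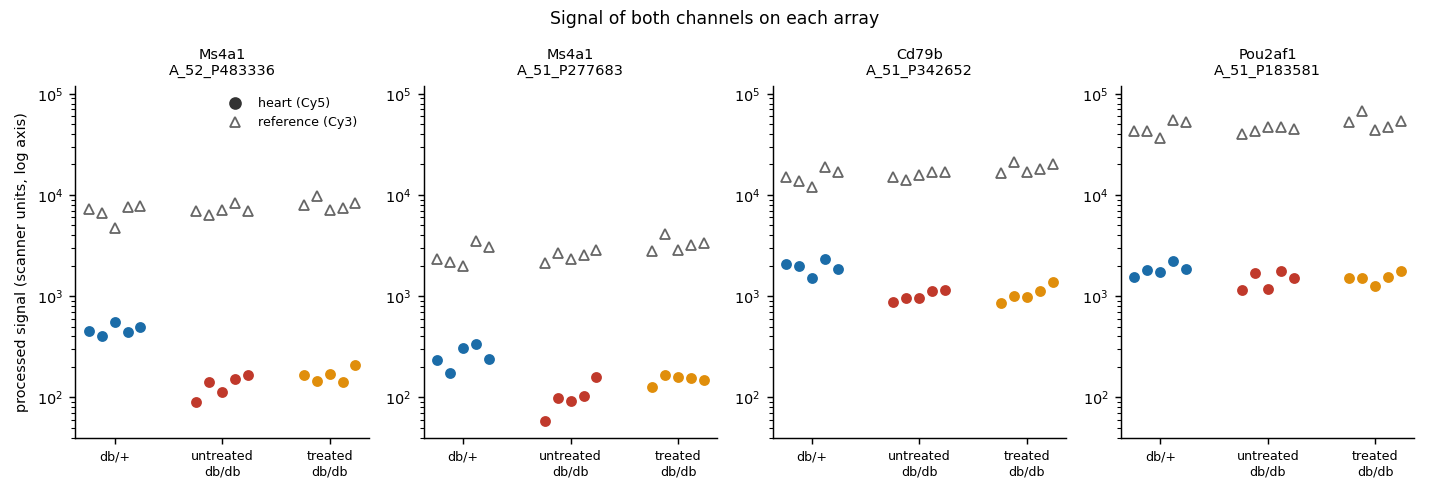
Processed signal of the heart channel (filled circles, coloured by group) and of the reference channel (open triangles) on each of the 15 arrays, on a log axis, for the 4 probes that were well above background throughout. The heart signal of both Ms4a1 probes and of Cd79b is lower in both db/db groups, whereas the reference signal overlaps between groups.

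The other genes could not be measured well in these hearts. Their probes were dim in the reference channel too, at 179 units or less, against 1982 or more at the 4 probes above. Whether weak probes or low expression lay behind this was not tested. Cd79a, the alpha chain that pairs with CD79B, stood well above background on 1 of 5 db/+, 2 of 5 untreated and 4 of 5 treated arrays. Its mean log2 ratio was -0.73 ± 0.71 (SD, n = 5), -0.63 ± 0.59 (n = 5) and -0.17 ± 0.20 (n = 4), with overlapping groups. Cd79a was tested only through the treated group, and the filter thus favoured a higher level there. Cd22, the inhibitory receptor, was well above background at probe A_51_P448140 on 4, 2 and 3 arrays, in the same order of groups. Its log2 ratio ran from -0.49 to 2.38 among the db/+ hearts alone, with group means of 1.23 ± 1.12 (SD, n = 5), 0.74 ± 0.69 (n = 5) and 0.52 ± 0.32 (n = 4). It was tested only through the db/+ group, and the filter thus favoured a higher db/+ level. Blk, the Src-family kinase of B cells, was well above background on 0, 2 and 1 arrays and was not tested. Cr2, the complement receptor of mature and follicular B cells, was well above background at probe A_52_P490788 on 2, 3 and 3 arrays and was not tested either. The value of db/+ replicate 2 at that probe, 2.16, came from a spot marked as an outlier and was left out of the mean. The remaining probes, Cr2 A_51_P208525 and Cd22 A_52_P466268, were well above background on none of the 15 arrays.

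Thus 6 of the 10 probes, belonging to 5 of the 7 genes, passed the filter on dim probes (at least 4 arrays of some group with the heart signal well above background), as did 27593 probes in all. With limma and Benjamini-Hochberg adjustment over all of these, 3 member probes of 2 genes, Ms4a1 and Cd79b, were called lower in the untreated group than in db/+ and 0 higher. Over all tested probes 3.39% were called lower and 4.37% higher there, 7.76% in either direction. The same 3 probes were called lower and 0 higher in the treated group against db/+, where 4.21% of all tested probes were called lower and 4.49% higher, 8.70% in either direction. Between treated and untreated db/db hearts 0 members were called, and 0.00% of all tested probes. Groups that did not overlap, with the db/db hearts lower, were found at 3 member probes for untreated and 4 for treated against db/+ hearts, and 0 members had db/db hearts all higher. Over all tested probes the db/db hearts were all lower at 3.47% and 6.98%, and all higher at 4.33% and 7.61%. Treated and untreated hearts overlapped at all 6 tested member probes, where treated hearts were all lower at 2.50% and all higher at 2.08% of tested probes. The genes were chosen on these comparisons, so nothing is read from the counts. Over the brightest probe of each of the 7 genes, the median log2 difference was -0.30 in untreated and -0.48 in treated hearts against db/+, and -0.19 between treated and untreated hearts. The median over all tested probes was 0.01, 0.01 and -0.01.

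The next question was whether the members varied together from heart to heart once the group means were taken out, which the choice of genes did not use. Over the 14 samples, 15 pairs of the 6 tested probes were correlated, with p from 100000 permutations within groups. The Ms4a1 probes followed each other with r = 0.79 (permutation p = 0.0058, adjusted over the 15 pairs 0.037) and rho = 0.61 (permutation p = 0.036). Leaving out the 2 samples farthest from the median lowered r to 0.52. Ms4a1 A_52_P483336 followed Pou2af1 with r = 0.74 (permutation p = 0.0054, adjusted 0.037) and rho = 0.77 (permutation p = 0.006), and r was 0.79 without the 2 farthest samples. Cd79b followed Pou2af1 with r = 0.66 (permutation p = 0.012, adjusted 0.045) and rho = 0.59 (permutation p = 0.027), with r = 0.49 without the 2 farthest samples. Ms4a1 A_52_P483336 and Cd79b gave r = 0.48 (permutation p = 0.11, adjusted 0.24) and rho = 0.49 (permutation p = 0.093), which did not pass. The other Ms4a1 probe, A_51_P277683, passed neither with Pou2af1 (r = 0.42, permutation p = 0.17, adjusted 0.28) nor with Cd79b (r = 0.30, permutation p = 0.27, adjusted 0.34). The pairs with Cd79a or Cd22 are not read, since these probes were at background on many arrays. Among them, Pou2af1 and Cd22 gave r = -0.64 (permutation p = 0.0074, adjusted 0.037) and rho = -0.53 (permutation p = 0.068), and r was -0.71 without the 2 farthest samples. All values on an array share its labelling, its reference and its slide, and the part of these in the correlations was not tested. Slides hold too few samples of a group for values within them.

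The mean over the brightest probe of each of the 5 tested genes did not stand for the bright members. Its deviations followed Cd79a (r = 0.82) and Cd22 (r = 0.76), which had the widest spread within groups (SD of 0.52 and 0.74), and not Ms4a1 (r = -0.07), Pou2af1 (r = -0.13) or Cd79b (r = 0.26). Among 17935 genes searched over the 14 samples, 9 of the 10 whose pattern was most like this mean were R3hdm1 (r = 0.98), 1110060D06Rik (0.96), Atp6v1b2 (0.93), LOC672362 (0.91), Phxr5 (0.90), Fam214b (0.89), Lphn2 (0.89), Mapk14 (0.89) and Dhodh (0.88). They were selected for likeness to a mean that 2 dim probes dominate, and none of these symbols is on a B cell list used here.

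To set the 7 genes beside the rest of the B lineage, 66 other genes were listed in 6 groups by function, of which 63 were found on the array and 53 passed the filter, each at its brightest probe. Against db/+ hearts, 13 of the 53 were called lower and 2 higher in the untreated group (limma), beside 3.39% and 4.37% of all tested probes, and their median log2 difference was -0.33. In treated db/db against db/+ hearts 15 were lower and 1 higher, beside 4.21% and 4.49% of all tested probes, with a median of -0.34. Between treated and untreated hearts 0 were called, and the median was 0.04. The lists were written with earlier results of these data known, so these shares are no separate support. A gene seen in 1 group only passes the filter more easily if it differs. Of the 46 genes well above background on at least 4 arrays of every group, 10 were lower in untreated hearts (21.7%) and 1 higher, where 3.50% of the 24998 such probes in all were lower. In treated hearts 12 of the 46 were lower (26.1%) and 0 higher, against 4.33% of all such probes. Within slide 2, all 13 genes called lower in untreated hearts were also lower in the 3 untreated hearts than in the 1 db/+ heart, by -3.05 to -0.32. These arrays were also in the fit that called the genes, so the shared sign is no separate evidence. With slide as a fixed block, this contrast rested on slide 2 alone and so on 1 db/+ heart. Only 34 probes in all were then called, and of the 15 calls those of Prdm1 and Cxcl13 were kept. The Cxcl13 value of that db/+ heart, -0.01, was not well above background. The slide 2 difference of Cxcl13 was 4.51, against 2.71 over all samples. In treated hearts 0 of the 16 calls were kept with that block.

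Of 14 tested genes of the B cell receptor and its signalling, 4 were called lower in untreated and 5 in treated db/db hearts and 0 higher, with median log2 differences of -0.39 and -0.30. Ighm, the heavy chain of IgM, had log2 ratios of 4.33, 3.90, 4.04, 3.91 and 4.35 in db/+ hearts, 2.84, 3.39, 3.16, 3.61 and 2.61 in untreated and 2.81, 3.10, 3.23, 3.14 and 3.25 in treated hearts. No db/db heart reached the db/+ range. Ighm was 1.98-fold lower in untreated hearts (log2 difference -0.99 ± 0.18 SE, limma adjusted p = 0.0058) and 2.03-fold lower in treated ones (-1.02 ± 0.19 SE, adjusted p = 0.0067). A second, dimmer probe gave -0.90 (adjusted p = 0.055) and -0.99 (adjusted p = 0.045). Normexp background correction with loess turned the Ighm differences to 0.22 and 0.15, neither called, and they were below 0 again once the background of spots far below it was replaced. The scaffold Bank1 fell by 1.06 and 1.22 on the log2 scale (adjusted p = 0.022 and 0.015). Its untreated call was lost without db/+ replicate 3 (adjusted p = 0.051), untreated replicate 1 (0.053) or untreated replicate 5 (0.055). Lyn, a Src-family kinase that myeloid cells express as well, fell by 0.46 and 0.39 (adjusted p = 0.0082 and 0.022), and its treated call was lost without db/+ replicate 4 (0.054), treated replicate 1 (0.074) or treated replicate 5 (0.072). A second Lyn probe gave -0.31 (adjusted p = 0.081) and -0.39 (adjusted p = 0.045), and normexp with loess turned the Lyn differences to 0.21 and 0.24. The kinases Syk, Btk and the adaptor Blnk, which cells beyond the B lineage also use, did not pass.

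Of 14 tested surface and homing genes, 6 were lower and 1 higher in untreated and 5 lower and 1 higher in treated hearts, with medians of -0.42 and -0.43. Cxcr5, the receptor that leads B cells into follicles, stood well above background on 4 of 5 db/+, 0 of 5 untreated and 2 of 5 treated arrays. It was at least 2.95-fold lower in untreated hearts (adjusted p = 0.0048). This bound sets each untreated array at the lowest signal that was still well above background, and it is open to dye bias because no dyes were swapped. In treated hearts the Cxcr5 difference was -2.07 (limma adjusted p = 0.019), a call lost without treated replicate 1 (0.056) or 5 (0.063). With 2 of 5 treated arrays well above background, the size of this difference is uncertain. Fcrla, an intracellular protein of B cells related to Fc receptors, stood out from background on 4 db/+ arrays and none of the db/db arrays. It was at least 2.02-fold lower in untreated (limma adjusted p = 0.0025) and at least 1.999-fold lower in treated hearts (adjusted p = 0.0091). Cxcr5 and Fcrla passed the filter only through the db/+ group, which favours lower values in db/db hearts. Their p-values also rest on values at background, so they are no separate support. Ltb, lymphotoxin beta, which B and T cells make to organise lymphoid tissue, fell by 0.66 and 0.84 (adjusted p = 0.017 and 0.0067). Fcmr, an Fc receptor for IgM, fell by 1.38 and 1.34 (adjusted p = 0.025 and 0.033). The Fcmr call in untreated hearts was lost without untreated replicate 1 (0.058), 3 (0.06) or 5 (0.062), and that in treated hearts when any of 7 of the 9 samples was left out (up to 0.091). Cd38, a surface enzyme that consumes NAD, fell by 0.47 in both groups (adjusted p = 0.031 and 0.036) and Ly86, the partner of the receptor CD180, by 0.99 in untreated hearts (adjusted p = 0.049). The untreated calls of Cd38 and Ly86 were lost when any of 6 and of 8 of the 10 samples were left out, with adjusted p of up to 0.073 and 0.11, and the treated call of Cd38 when any of 8 of the 9 was (up to 0.092). A second Cd38 probe gave -0.32 (adjusted p = 0.34) and 0.02 (adjusted p = 0.96), and normexp with loess turned both Cd38 differences, to 0.79 and 0.75.

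Cxcl13, the chemokine that CXCR5 binds, went the other way. Its log2 ratios were 2.99, 1.99, 2.66, 2.72 and -0.01 in db/+ hearts, 4.74, 5.12, 3.64, 6.01 and 4.38 in untreated and 4.56, 4.44, 4.97, 4.03 and 5.29 in treated hearts. Of the db/+ arrays 2 of 5 read it well above background, and all db/db arrays did. The log2 difference from db/+ was 2.71 ± 0.53 SE in untreated (limma adjusted p = 0.0094) and 2.63 ± 0.56 SE in treated hearts (adjusted p = 0.014). Cxcl13 passed the filter only through the db/db groups. Since most db/+ arrays were not well above background, the sizes of these differences are uncertain. Stromal and myeloid cells are known sources of this chemokine.

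In the system of the survival factors BAFF and APRIL, 2 of 4 tested genes, both receptors, were called lower in each db/db group, with medians of -0.66 and -0.70. Tnfrsf13c, the BAFF receptor on which mature B cells depend, was well above background on 4 db/+ arrays, 0 untreated and 1 treated array. It passed the filter only through the db/+ group. The size of its treated difference, -1.51 (limma adjusted p = 0.017), rests mostly on values at background. That call was lost without treated replicate 1 (0.059) or treated replicates 3 and 4 (0.053). Tnfrsf17, the receptor BCMA of plasma cells, fell by 0.82 and 0.83 (adjusted p = 0.022 and 0.025). Its untreated call was lost without db/+ replicate 3 (0.051) or 4 (0.056) or untreated replicate 1 (0.052) or 5 (0.055), and its treated call when any of 6 of the 9 samples was left out (up to 0.069). Tnfsf13b, which encodes BAFF itself, had differences of 0.37 and 0.35 (adjusted p = 0.14 and 0.18) and was not called.

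No B lineage transcription factor was called, with 11 tested, 9 of them below 0 in each db/db group and medians of -0.22 and -0.24. Pax5, the factor that holds B cell identity, stood out from background on 3 db/+ arrays and none of the 10 db/db arrays, and was not tested. Ebf1, Ikzf1, Irf4 and Bcl6 of this list are also used by cells outside the B lineage. Of the precursor genes 4 were tested, with medians of -0.27 in untreated and 0.19 in treated hearts, and Vpreb1, a part of the surrogate light chain, was lower in treated hearts (-1.001, adjusted p = 0.028). That call was lost without db/+ replicate 4 (0.061) or treated replicate 1 (0.056), 2 (0.06) or 5 (0.09). Vpreb1 and Vpreb2 are nearly identical, so the probe may read both. The recombinase genes Rag1 and Rag2 were not measurable.

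Of 6 tested plasma cell genes, 1 was lower and 1 higher in untreated and 2 lower in treated hearts, with medians of -0.17 and -0.47. Prdm1, which encodes Blimp-1, the factor that drives plasma cell differentiation and that T cells and myeloid cells also express, had log2 ratios of -0.05, 0.14, -0.12, -0.07 and 0.11 in db/+ hearts. They were -1.12, -1.43, -1.34, -1.17 and -1.05 in untreated and -1.08, -0.94, -1.23, -1.20 and -1.57 in treated hearts, without overlap with db/+. Prdm1 was 2.34-fold and 2.31-fold lower (adjusted p = 8.1e-05 and 0.00014). Xbp1, which builds the secretory apparatus of many cell types, fell by 0.42 in treated hearts (adjusted p = 0.046), a call lost when any of 6 of the 9 samples was left out (up to 0.13). Sdc1, the plasma cell marker CD138 that epithelia and vessels also carry, was 1.34-fold higher in untreated hearts (adjusted p = 0.011), and normexp with loess turned its log2 difference to -0.30. Jchain, which joins secreted IgM and IgA, was not called (-0.19 and -0.51, adjusted p = 0.46 and 0.063).

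**Figure D3:**
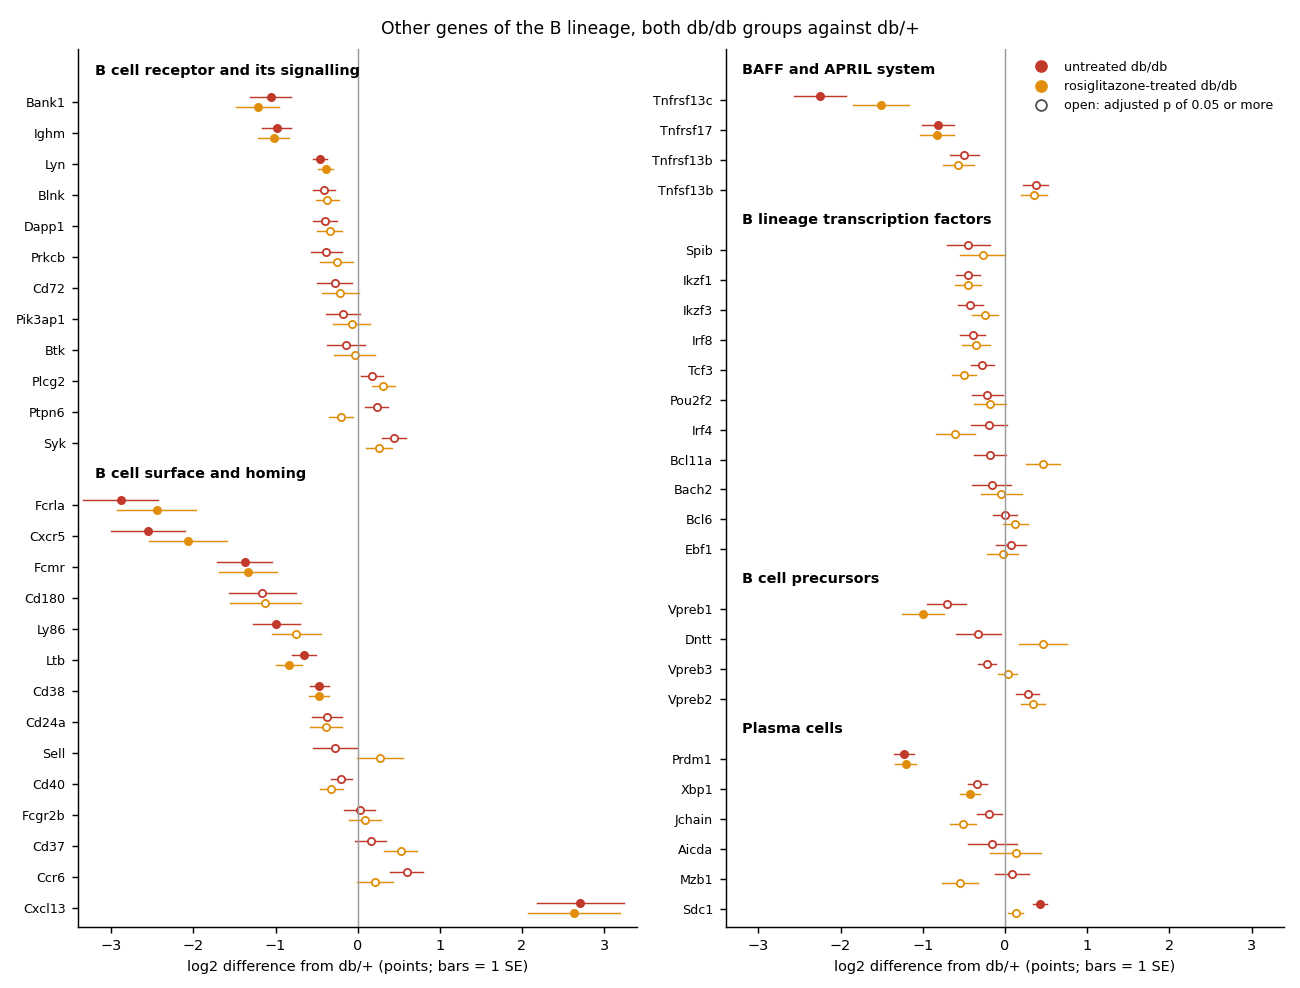
Log2 difference from db/+ hearts (horizontal axis, bars of 1 SE from the limma fit) for 51 of the 53 tested genes of the other B lineage lists, in untreated and rosiglitazone-treated db/db hearts. Filled points have an adjusted p under 0.05. Of the 51 plotted genes 12 are called lower and 2 higher in untreated hearts and 13 lower and 1 higher in treated hearts, with Cxcl13 far to the right.

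Comparing the rosiglitazone group with the untreated group, limma called 0 B lineage genes, while 2423 of the 27593 tested probes had an unadjusted p under 0.05. Treated minus untreated was -0.04 for Ighm (95% interval -0.45 to 0.38) and 0.02 for Prdm1 (-0.26 to 0.30), so that smaller changes in either direction remain possible. For Tnfrsf13c it was 0.74 (95% interval -0.01 to 1.49), but this gene was well above background on only 1 of the 10 db/db arrays. Within slide 3, which held 2 arrays of each db/db group, the treated hearts were lower at Cd79b by 0.45 and at Pou2af1 by 0.47, larger than the differences of the group means.

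Markers of other immune cells moved beside the B cell genes, and their part in the result was not tested. B cells carry MHC class II, which macrophages and dendritic cells also carry. Of the 8 MHC class II genes tested, all had a negative difference in both db/db groups, with medians of -0.70 in untreated and -0.97 in treated hearts, and 1 and 2 were called lower. H2-Oa, a chaperone subunit found mainly in B cells and thymus, was called in both (-0.94 and -1.08, adjusted p = 0.036 and 0.024), and H2-Eb1 in treated hearts (-1.60, adjusted p = 0.025). A second H2-Oa probe gave -1.02 (adjusted p = 0.0086) in untreated but -0.24 (adjusted p = 0.48) in treated hearts. The calls of H2-Oa in untreated and treated hearts were lost when any of 6 of the 10 and of 4 of the 9 samples were left out, and that of H2-Eb1 when any of 3 of the 9 was. The summed heart signal of the 8 genes was 48820 to 103700 on db/+ arrays, 12960 to 87310 on untreated and 12680 to 36470 on treated arrays. The untreated range overlapped that of db/+, and the treated range did not.

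Of 16 tested genes of T and natural killer cells, 3 were called lower in untreated and 4 in treated hearts and 0 higher, with medians of -0.38 and -0.27. Gzma, granzyme A, had a difference of -2.32 (adjusted p = 0.0089) and Klrd1, a natural killer cell receptor chain, of -1.92 (adjusted p = 0.01) in untreated hearts. Both were called lower in treated hearts as well. Gzma was well above background on 5 db/+ arrays but on 1 untreated array, and Klrd1 on 5 and 4. The size of the Gzma difference thus rests on values at background. Gzma, like Cd247 below, passed the filter only through the db/+ group. Cd247, the CD3 zeta chain, was called in both groups (-1.49 and -1.49, adjusted p = 0.035 and 0.041) and Cd3d in treated hearts (-1.07, adjusted p = 0.04), and each of these calls was lost when any of 7 samples was left out. The summed heart signal of 15 genes of this list was 5930 to 7196 in db/+, 4767 to 6366 in untreated and 5537 to 6250 in treated hearts.

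General leukocyte genes, 10 of them, gave 0 calls in untreated hearts (median -0.23) and 2 lower ones in treated hearts (median -0.24), Cd52 (-1.02, adjusted p = 0.026) and Coro1a (-0.48, adjusted p = 0.048). The Cd52 call was lost when any of 5 of the 9 samples was left out (up to 0.082) and the Coro1a call when any of 7 was (up to 0.14), and a second Coro1a probe gave -0.35 (adjusted p = 0.23). Of 10 macrophage and dendritic cell genes, Itgax was lower in untreated hearts (-1.12, adjusted p = 0.047), a call lost when any of 9 of the 10 samples was left out, while a second probe gave -0.10 (adjusted p = 0.92), and 0 were called in treated hearts, with medians of -0.19 and -0.13. Neutrophil genes ran the other way, all 5 tested genes being positive, with medians of 0.41 and 0.76 and Ltf called in treated hearts (2.18, adjusted p = 0.049), a call lost when any of 8 of the 9 samples was left out and not made at a second probe (1.66, adjusted p = 0.092). Follicular dendritic and lymphoid stroma genes gave 0 calls of 5 and medians of 0.19 and 0.15, and cardiomyocyte genes gave 0 of 12, with medians of -0.34 and 0.08. In untreated hearts the fat cell genes Cfd (-3.55, adjusted p = 0.00083) and Adipoq (-2.39, adjusted p = 0.01) were lower, while Lipe was higher (0.88, adjusted p = 0.0095). Cfd was well above background on 3 of 5 untreated arrays and Adipoq on 1 of 5, so the sizes of these differences are uncertain. Both were called lower in treated hearts as well, where most arrays did not read them well above background, and Lipe was not called there. Cfd and Adipoq passed the filter only through the db/+ group, and Ltf only through the treated group. Endothelial genes (8 tested) and red blood cell genes (3 tested) gave 0 calls. The median differences of the red blood cell genes were -0.10 and -0.12, while the summed heart signal of 2 of them was 14740 to 41550 in db/+, 8381 to 15860 in untreated and 6416 to 13120 in treated hearts. The untreated range of this sum overlapped that of db/+, and the treated range lay below it. The part of red blood cells in the differences of the B cell genes was not tested.

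**Figure D4:**
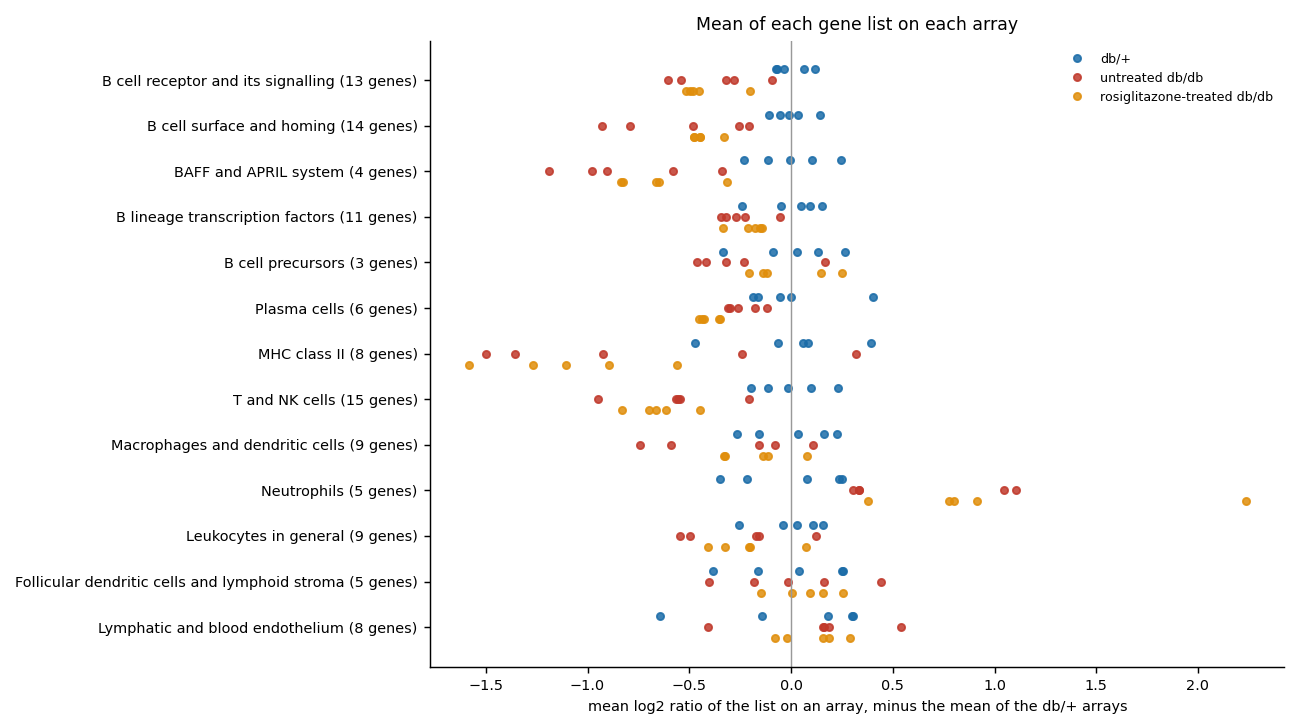
Mean log2 ratio of each gene list on each of the 15 arrays, minus the mean of the db/+ arrays (horizontal axis), for the 6 B lineage lists and 7 lists of other cell types, over genes with a value on every array. The B cell receptor, surface, BAFF and T and natural killer cell lists lie below the db/+ arrays in both db/db groups. MHC class II and plasma cell genes do so in treated hearts only, and neutrophil genes lie above the db/+ arrays.

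Against db/+, the direction of the 3 measurable members was the same under every alternative. The members were chosen on these comparisons and many alternatives refit the same ratios, so the kept direction is no separate support. Over 24 alternatives for untreated against db/+ hearts, the brightest Ms4a1 probe differed by -2.04 to -1.26, Cd79b by -1.28 to -0.83 and Pou2af1 by -0.83 to -0.18. Over 23 alternatives for treated against db/+ hearts the ranges were -2.20 to -1.10, -1.34 to -1.01 and -0.93 to -0.37. The smallest Ms4a1 differences came from another background correction, in which spots with a local background far above their signal were given the median background of the array. Between treated and untreated hearts, Ms4a1 ranged from -0.25 to 0.30 over 23 alternatives, whereas Cd79b, at -0.45 to -0.06, and Pou2af1, at -0.47 to -0.07, kept a negative sign. The dim genes were less stable. Against db/+, Cd79a and Cr2 changed sign among the alternatives in both db/db groups and Blk in treated hearts, while Cd22 stayed below 0 in both groups but came as close as -0.04 in untreated hearts.

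**Figure D5:**
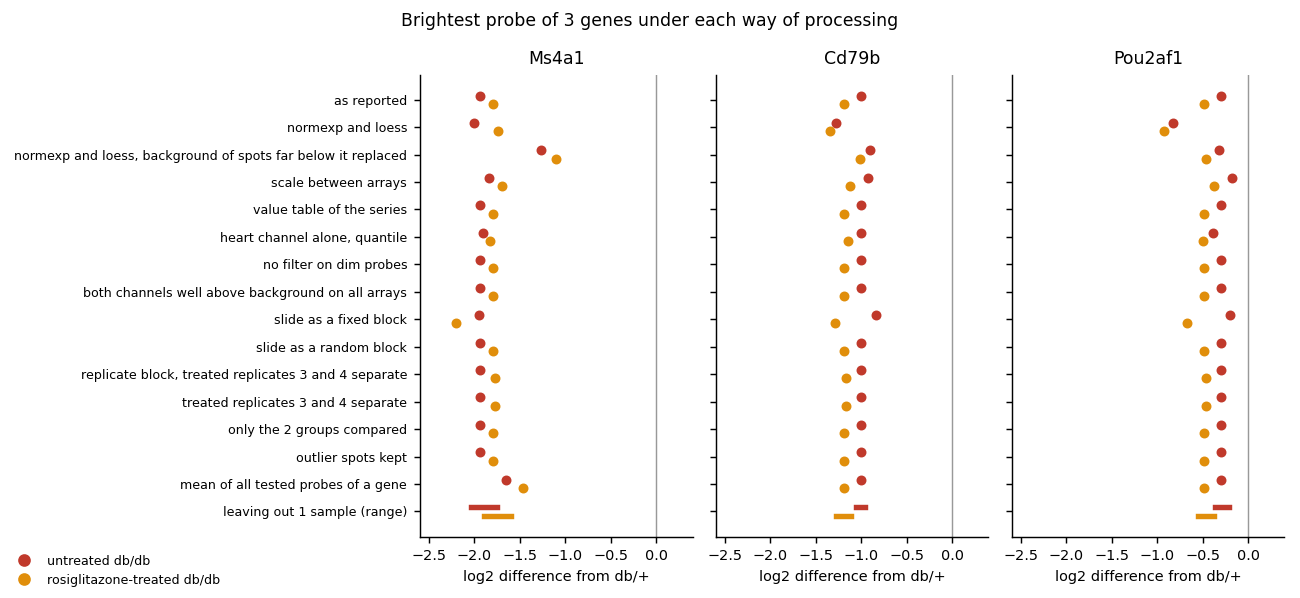
Log2 difference from db/+ hearts (horizontal axis) of the brightest probe of Ms4a1, Cd79b and Pou2af1 in untreated and rosiglitazone-treated db/db hearts, as reported and under each alternative. Bars in the bottom row are the range over leaving out 1 sample at a time. All points lie below 0, and Pou2af1 lies closest to it.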

How the data were processed

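Whole-heart RNA and Universal Mouse Reference RNA were hybridised to 15 Agilent arrays of 45018 spots. Per the file headers, the authors extracted intensity values with Feature Extraction 9.5.1.1, which subtracted background and normalised dyes, and deposited a log10 ratio of heart over reference for each spot. Ratios were converted to log2 and averaged over the spots of a probe, leaving out controls and outlier spots (132 to 1210 per array). A probe was tested if at least 4 of the 5 arrays of any group read its heart signal well above background (27593 of 41174). The 3 groups were fitted together with limma 3.58.1 (R 4.3.3) on 14 samples with 11 residual degrees of freedom, and p-values were adjusted by Benjamini-Hochberg over all tested probes. Calls needed an adjusted p under 0.05. Steps were tested on simulated data. The study's own test, SAM, was not used here.

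The members, gene lists, tests and alternatives were chosen with earlier results of these data known. Named genes were all members, up to 8 called genes of each list with the largest untreated difference, 10 genes most alike, and Tnfrsf13c, Pax5 and Ighm. Some genes that this rule names are not reported here. Probe positions are those the files give on mm8. The alternatives were background correction, scaling, the value table the authors deposited, the heart channel alone, filters, slide and replicate blocks, 2-group fits, treated replicates 3 and 4 kept apart, all probes of a gene, and leaving out samples. Added after seeing the data were outlier spots kept and a local background replaced where it lay over 50 units above the spot.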

Additional observations from a re-analysis of the deposited data

Results flagged for a closer look

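In a group of 5 arrays, 1 value can lie so far from the others that its gap to the nearest one takes up most of the range of the group, and chance alone does this in about 1 in 20 groups. Ms4a1 at probe A_52_P483336 had such a value in db/+ replicate 3, with a log2 ratio of -3.08 where the other db/+ hearts lay between -4.11 and -3.97. The same array had the lowest correlation with the other arrays, and its second Ms4a1 probe, at -2.69, was also the highest of the group. The other 3 such values come from probes that were well above background on no array. Cr2 at probe A_51_P208525 had a log2 ratio of 1.40 in treated replicate 2 and 0 in the other treated hearts. Cd22 at probe A_52_P466268 had 0.65 in db/+ replicate 5 and 0.0135 in untreated replicate 5, against 0 in the other hearts of those groups.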

How the results depend on the processing

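Normexp background correction with loess gave 6 other B lineage genes lower in untreated and 4 lower and 0 higher in treated against db/+ hearts, 1421 probes in treated against db/+ hearts, and 67.9% and 67.4% of calls higher where the reported fit had 56.3% and 51.6%. Under it 7 calls changed sign. In untreated hearts Ighm was 0.22, Lyn 0.21, Cd38 0.79 and Sdc1 -0.30, and in treated hearts Ighm was 0.15, Lyn 0.24 and Cd38 0.75. On db/+ replicates 1 and 3 this correction left the 5th percentile of the heart signal at 806 and 858, against 61.3 to 217 on the other arrays. With the background of 28 and 13 spots far below it replaced there, these were 59.95 and 60.3, no call changed sign, and 1 gene was higher in untreated and 0 in treated hearts, with 3 probes between treated and untreated hearts.

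The heart channel alone gave 1 higher gene in untreated and 2 in treated hearts and 110 probes between treated and untreated hearts. A stricter filter on both channels gave 1 and 0 higher genes. Slide as a fixed block gave 34 probes and 1 lower and 1 higher gene in untreated, 4 probes with 0 lower and 0 higher genes in treated hearts, and 1 probe between the db/db groups. As a random block (correlation -0.11) it gave 5033 probes, 20 lower and 4 higher genes in untreated, 5127 probes and 2 higher genes in treated hearts, and 1 probe between the db/db groups. Keeping treated replicates 3 and 4 apart gave 3753 probes in treated against db/+ hearts and 1 between the db/db groups, and fitting only 2 groups gave 924 probes and 8 lower genes in untreated hearts.

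Leaving out 1 sample gave 1185 (without db/+ replicate 4) to 2743 probes in untreated against db/+ hearts, with 1377, 1267 and 1278 without untreated replicates 1, 3 and 5. It gave 1093 (without treated replicate 5) to 2885 in treated hearts, with 1438 without db/+ replicate 4 and 1178, 1278 and 1324 without treated replicates 1, 2 and 3 with 4. Between the db/db groups it gave 0 to 14, the latter without untreated replicate 4. Lower genes numbered 9 to 17 in untreated and 7 to 15 in treated hearts (7 without treated replicate 1, 8 without treated replicate 5). Higher genes numbered 2 to 4 (4 without db/+ replicate 5) and 1 to 2 (2 without db/+ replicate 1). Over leaving out 1 sample, the median of the members ran from -0.35 to -0.20 in untreated, from -0.55 to -0.37 in treated hearts, and from -0.22 to -0.07 between them.

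Replicate numbers did not pair the samples. Same-numbered samples correlated at -0.19 to 0.05, and with the replicate block 1655, 0 and 2521 probes were called in untreated against db/+, treated against untreated and treated against db/+ hearts. Apart from the cases above, the cause of these changes was not tested. The data are limited by signal over background, since 4 of the 7 genes were too dim, and by the layout, since only slide 2 holds both untreated and db/+ hearts.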
